A study of Mus musculus with 4 samples.

Results

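A group of 10 imprinted genes was followed over coronal sections of the mouse brain: Dlk1, Peg3, Peg10, Mest, Ndn, Magel2, Nnat, Plagl1, Grb10 and Cdkn1c. They were chosen by symbol, with earlier results of these data known, and all 10 were found among the 19465 probe-targeted features. The sections came from wild-type male C57BL/6J pups at postnatal day 21, and their mothers were kept on a folic acid (FA) diet from before mating to the end of lactation. The labels do not name the animals, and the study calls the sections of a diet biological replicates. In the MF group (2 sections) the diet held 2 mg/kg FA, and in the HF group (2 sections) it held 20 mg/kg FA. Visium-FFPE counts RNA of a fixed section by hybridised probe pairs in barcoded spots, each a small region that can hold several cells of different types. Levels are given as CPM, the unique molecular identifier (UMI) counts of a gene for every 1000000 UMIs of the same area and section. Probes differ between genes, so levels are compared across areas or sections and never from gene to gene.

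An imprinted gene is read mainly from the copy inherited from 1 parent, because DNA methylation laid down in the germ line differs between copies. Dlk1, Peg3, Peg10, Mest, Ndn, Magel2, Nnat and Plagl1 are known as paternally expressed. Cdkn1c is maternally expressed, and Grb10 is read from the maternal copy in most tissues and from the paternal copy in neurons. Many imprinted genes are known for high levels in the hypothalamus, where they bear on feeding, growth and maternal behaviour. Folate feeds the cycle that supplies methyl groups. Probe counts do not tell the parental copies apart.

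In GRCm38 the genes lie in several clusters. Ndn (chr7:62346569-62350262) and Magel2 (chr7:62377010-62381640) are neighbours, 26748 bases apart, in the region that corresponds to the Prader-Willi syndrome region of humans. Peg3 (chr7:6703892-6730431) and Cdkn1c (chr7:143458339-143461050) lie elsewhere on the same chromosome. Peg10 (chr6:4747306-4760517) and Mest (chr6:30723547-30748465) share chromosome 6. Dlk1 is at chr12:109452823-109463336, Plagl1 at chr10:13060504-13131694 and Grb10 at chr11:11930508-12038683. Nnat (chr2:157560078-157562522) sits inside Blcap (chr2:157556362-157571274), which is read from the opposite strand.

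RefSeq promoter windows (GRCm38.p6) were found for 8 of the 10 genes, 11 windows in all. Each holds 250 bases before and 50 bases after a transcription start. They were searched on both strands for TGCCGC, the hexamer bound by ZFP57, a zinc finger protein that keeps methylation at imprinted loci. Windows of 4 genes held it (Mest, Nnat, Plagl1 and Grb10), 5 of the 11 windows, and 11.6% of all 32851 windows did. The members' windows had a median of 13 CpG dinucleotides, against 7 over all windows. The match describes the letters of the window and not a bound site. The 250 bases before the start are shown for 4 members that recur below, with the hexamer, or GCGGCA, its reverse complement, in capitals. Mest and Plagl1 hold it there, Dlk1 and Nnat do not, and 8.68% of all windows hold it in those 250 bases.
Dlk1, chr12:109452573-109452822, plus strand: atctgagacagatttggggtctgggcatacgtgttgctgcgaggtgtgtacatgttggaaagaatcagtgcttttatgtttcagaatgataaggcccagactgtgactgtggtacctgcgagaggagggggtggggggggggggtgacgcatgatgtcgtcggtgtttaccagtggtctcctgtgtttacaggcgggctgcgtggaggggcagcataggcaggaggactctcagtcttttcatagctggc
Mest, chr6:30737800-30738049, plus strand: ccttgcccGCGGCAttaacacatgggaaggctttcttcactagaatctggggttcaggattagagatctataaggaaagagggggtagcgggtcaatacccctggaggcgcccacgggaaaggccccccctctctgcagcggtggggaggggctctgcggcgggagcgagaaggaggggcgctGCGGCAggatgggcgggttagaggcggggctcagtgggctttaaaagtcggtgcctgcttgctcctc
Nnat, chr2:157559828-157560077, plus strand: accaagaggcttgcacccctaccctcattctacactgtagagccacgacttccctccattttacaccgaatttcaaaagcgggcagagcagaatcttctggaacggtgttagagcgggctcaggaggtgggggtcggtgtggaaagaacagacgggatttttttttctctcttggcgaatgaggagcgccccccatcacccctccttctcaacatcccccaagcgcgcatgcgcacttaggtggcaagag
Plagl1, chr10:13090582-13090831, plus strand: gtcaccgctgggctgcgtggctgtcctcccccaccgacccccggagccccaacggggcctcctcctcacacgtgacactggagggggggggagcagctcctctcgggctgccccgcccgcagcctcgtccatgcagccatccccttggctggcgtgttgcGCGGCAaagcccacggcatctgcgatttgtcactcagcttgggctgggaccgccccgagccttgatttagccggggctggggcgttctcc

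Section totals ranged from 34983708 to 90098381 UMIs, and MF replicate 1 was the deepest, so depth was unequal between the diets. Between 3197 and 3598 spots were kept per section. Spots were clustered without the members into 18 clusters. The hypothalamic area, 2 clusters with Gabrq, Arhgap36, Baiap3 and Hap1 among their leading genes, held 439 to 665 spots per section. HF replicate 2 stood apart from the other sections in its hypothalamic peptides. Pmch, the melanin-concentrating hormone of the lateral hypothalamus, was at 3142 and 1897 CPM in MF and at 1395 CPM in HF replicate 1, but at 1.87 CPM in HF replicate 2. Hcrt, which encodes the orexins, was at 342, 270.4 and 157 CPM in the same 3 sections and at 0.187 CPM in HF replicate 2. Avp (vasopressin) and Oxt (oxytocin), made in the paraventricular and supraoptic nuclei, were at 873 and 1786 CPM in HF replicate 2. In the other sections Avp did not pass 2.51 CPM and Oxt did not pass 14.5 CPM. The labels give the sections as coronal but not how far front or back in the brain each was cut. The part of this difference in the diet results was not tested, and those of the whole section and the hypothalamic area are given with and without HF replicate 2.

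Of the 10 imprinted genes, 9 were higher in the hypothalamic area than in the mean of the cortical, hippocampal, thalamic, striatal and white matter areas. The size of the difference ran from 14.6-fold for Dlk1 to 1.82-fold for Mest, and Cdkn1c did not differ detectably. The test was edgeR's quasi-likelihood test on summed UMIs with section as a block, and a gene was called at an adjusted p under 0.05 and at least 1.2-fold. Over all 13462 features tested, 17.5% were called higher in the hypothalamic area, and 16.8% of the features that were not used for clustering. Only 3.75% of features were called at 2-fold or more and 0.929% at 4-fold or more, while 8 and 3 of the imprinted genes passed these sizes. The median log2 difference was 1.69 over the 10 genes and -0.04 over all features. As the genes were chosen with earlier results of these data known, these shares describe the list and are no independent test of it. With library sizes alone in place of TMM scaling, 3647 of 5397 called features were higher, against 2360 of 5172, and the same 9 genes were called.

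**Figure D1:**
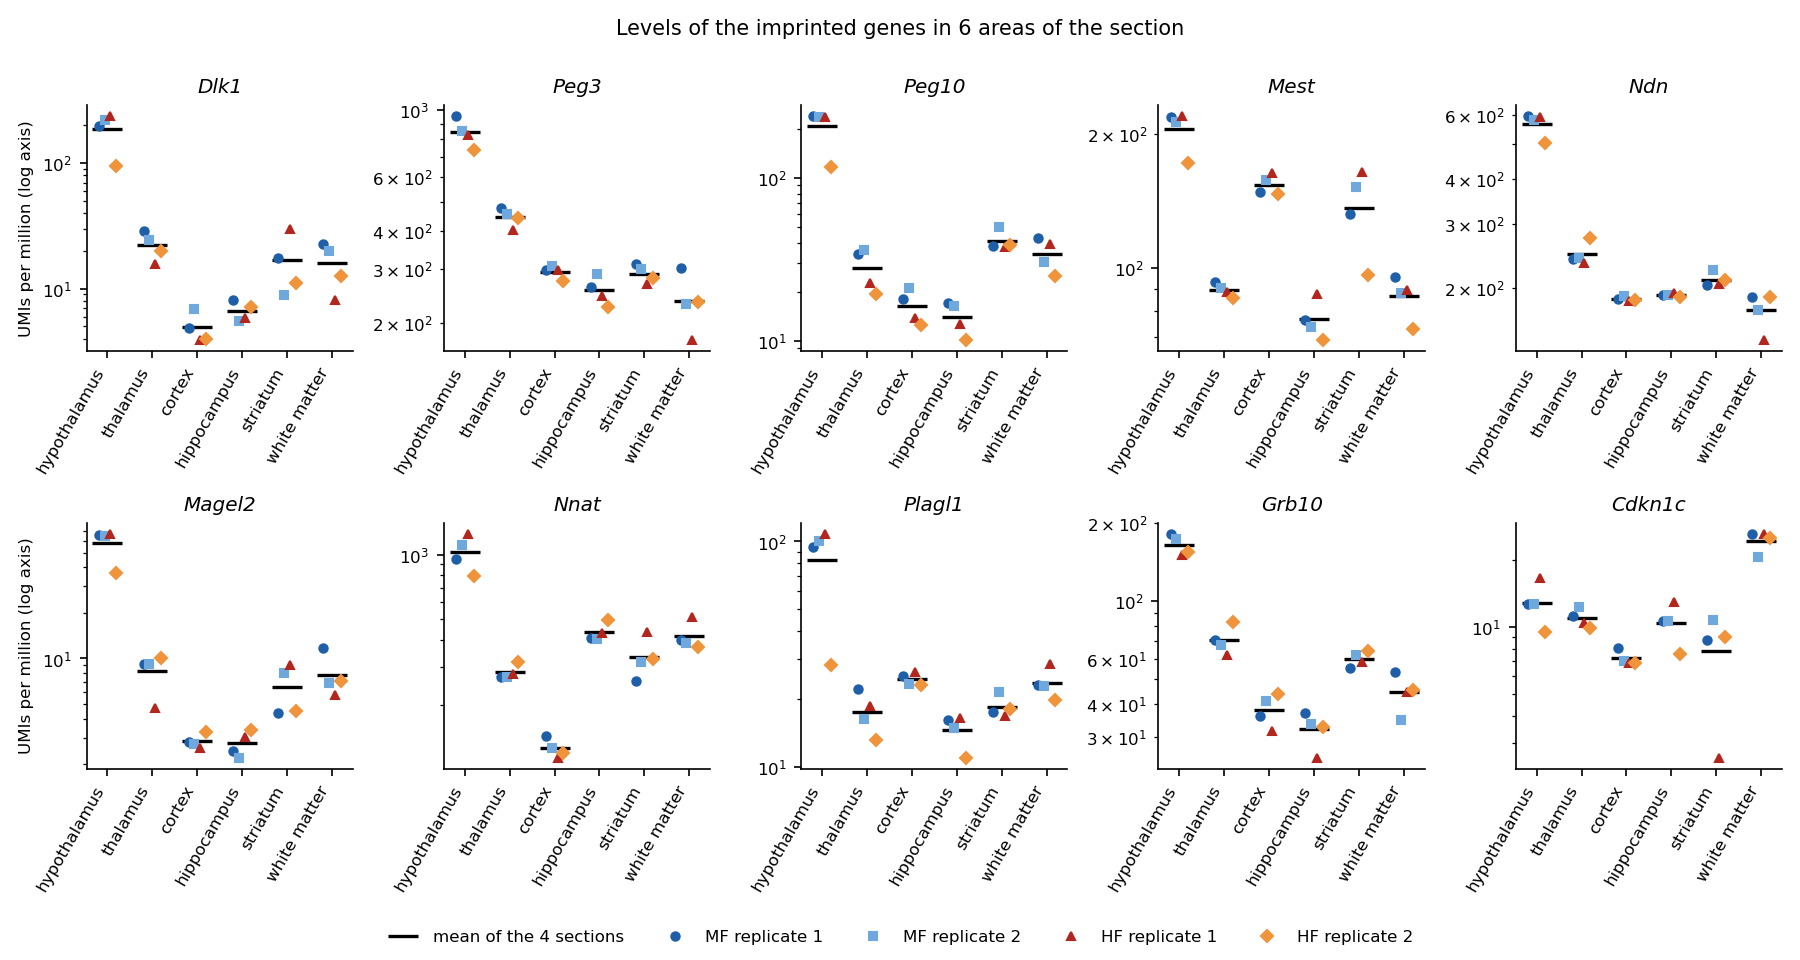
Levels of the 10 imprinted genes in 6 areas of the section, in CPM on a log axis, with a point for each of the 4 sections and a bar for their mean. For 9 genes the hypothalamic points lie highest in each section, as for Dlk1 with a mean of 188 against 22.2 or less elsewhere, and Cdkn1c is highest in white matter.

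Dlk1 encodes a transmembrane protein related to the Notch ligands. It stood at 199 and 221 CPM in MF and at 236 and 94.1 CPM in HF in the hypothalamic area. In the cortical area it was at 4.86, 6.92, 3.91 and 3.99 CPM in the same order of sections. Every section was thus far higher in the hypothalamic area, and even HF replicate 2, the lowest there, lay above all values of the other 5 areas. The log2 difference was 3.87 ± 0.10 (SE), with an adjusted p of 2.19e-25. After each spot was thinned to 5000 UMIs, Dlk1 had a UMI in 55.8% and 57.4% of hypothalamic spots in MF and in 56.2% and 32.0% in HF. In the cortical area that share was between 1.45% and 4.34%, after the same thinning.

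Magel2 and Ndn belong to the MAGE protein family. Magel2 was at 65.4 and 64.3 CPM in MF and 66.1 and 36.8 CPM in HF in the hypothalamic area, and between 2.21 and 3.38 CPM in the hippocampal area. All hypothalamic values lay above all values of the other 5 areas, and the log2 difference was 3.43 ± 0.12 (SE), with an adjusted p of 1.70e-22. Ndn, its neighbour on the chromosome, was at 595, 582, 593 and 502 CPM in the hypothalamic area in the same order of sections. It was widespread elsewhere, from 144 CPM in a white matter area to 275 CPM in a thalamic area. The difference for Ndn was 1.37 ± 0.04 (SE) on the log2 scale, with an adjusted p of 9.32e-25. Both neighbours were thus highest in the hypothalamic area among the 6.

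Peg10, a gene derived from a retrotransposon, was at 238 and 237 CPM in MF and 237 and 116 CPM in HF. The highest value of any other of the 6 areas was 50.2 CPM, in the striatal area of MF replicate 2. Its log2 difference was 2.93 ± 0.07 (SE), adjusted p 4.04e-27. Peg3, a zinc finger protein gene, was at 952 and 853 CPM in MF and 829.7 and 739 CPM in HF, and the thalamic area came next with 402 to 476 CPM. All 4 hypothalamic values of Peg3 lay above all thalamic values, and the log2 difference from the mean of the other areas was 1.37 ± 0.04 (SE).

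Nnat, a small proteolipid of the endoplasmic reticulum, was at 950.3 and 1104 CPM in MF and at 1243 and 795 CPM in HF in the hypothalamic area. Its lowest area was the cortex in each section, with 113.5 to 142.7 CPM. The log2 difference was 1.68 ± 0.07 (SE). Nnat was also high in the medial habenular area, 993 to 1147 CPM, so that hypothalamic and habenular values overlapped, and the latter area was too small for a test. Plagl1, a zinc finger transcription factor, was at 94.2 and 100.3 CPM in MF and at 108 and 28.4 CPM in HF. The lowest of these values, from HF replicate 2, overlapped the white matter values of 19.7 to 28.5 CPM, although within that section the hypothalamic area was still the highest of the 6. The difference for Plagl1 was 1.94 ± 0.11 (SE) on the log2 scale.

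Grb10, an adaptor that restrains insulin and IGF receptor signalling, was at 182 and 174 CPM in MF and at 151 and 156 CPM in HF, and its log2 difference was 1.70 ± 0.06 (SE). Mest, a protein with the fold of a hydrolase, had the smallest called difference, 0.86 ± 0.05 (SE). It was at 219, 213, 219.6 and 172 CPM in the hypothalamic area and at 146.9 to 163.5 CPM in the cortical area, its next area among the 6. Cdkn1c, an inhibitor of cyclin-dependent kinases, was at 12.6 and 12.7 CPM in MF and 16.5 and 9.52 CPM in HF, for a log2 difference of 0.04 ± 0.11 (SE) and an adjusted p of 0.747. The interval of that difference ran from -0.17 to 0.26, and the call changed where areas came from the coarser clustering, with a difference of 0.38.

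**Figure D2:**
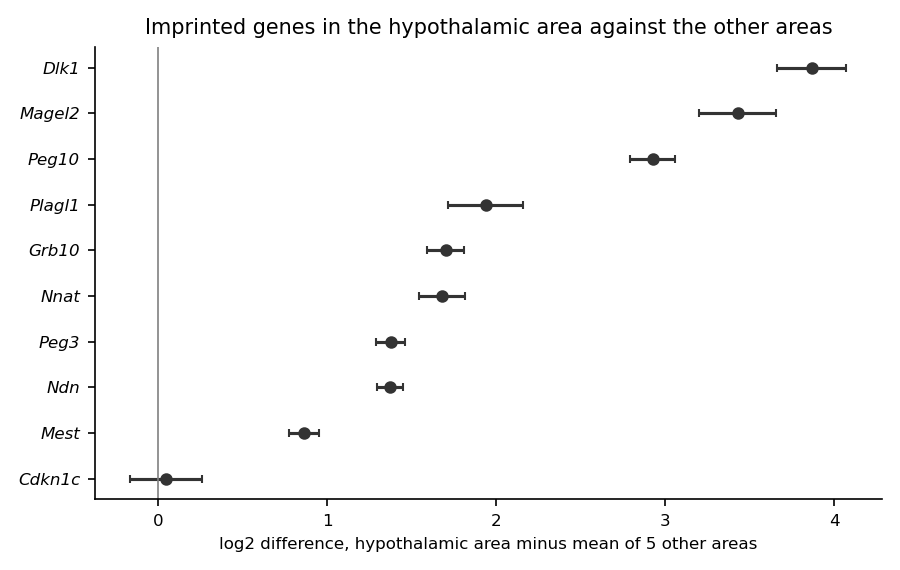
Log2 difference of each imprinted gene between the hypothalamic area and the mean of 5 other areas, with points for the edgeR estimate over 4 sections and bars for its 95% interval. Dlk1 is at 3.87 and Magel2 at 3.43, and only Cdkn1c, at 0.04, has an interval that holds 0.

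Within each section, 9 genes had their highest level among the 6 areas in the hypothalamus in 4 of 4 sections, and 10.8% of the 13964 features with at least 100 UMIs over these areas did so. The exception was Cdkn1c, highest in white matter in each section at 26.0 and 20.6 CPM in MF and 26.0 and 24.9 CPM in HF. The lowest area differed between genes. Peg10, Mest and Plagl1 were lowest in the hippocampal area in each section, and Nnat in the cortex. Magel2 and Dlk1 were lowest in the hippocampal or cortical area, whose ranges overlapped for both genes. The hypothalamic area held 46.2% ± 13.1 (SD, n = 4 sections) of all Dlk1 UMIs of a section, 44.4% ± 10.7 of those of Magel2 and 44.3% ± 7.56 of those of Peg10. Of the UMIs of all features it held 13.5% ± 2.15, and of those of Cdkn1c 12.7% ± 2.67.

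Over all 13 areas, those too small for a test included, the hypothalamic area ranked second for 8 of the genes, and below the medial habenula for Nnat as well. The range over sections overlapped that of the next lower area for Dlk1, Peg10, Mest, Nnat and Plagl1, and did not for Peg3, Ndn, Magel2 and Grb10. In the area with meningeal markers Dlk1 was at 123 and 118 CPM in MF and 121 and 32.2 CPM in HF, so HF replicate 2 was low there too. The cluster that ranked first for these 9 genes was led by Tmem212, Ccdc153, Irs4 and Otp, with 25 and 55 spots in MF and 146 and 105 in HF. Dlk1 was at 383 and 441 CPM there in MF and at 317 and 336 CPM in HF, above its hypothalamic level in each section. Nnat was at 3752 and 2771 CPM in MF and 1896 and 1691 CPM in HF in this cluster. For Peg3, Peg10, Mest, Plagl1 and Grb10 the range over sections there overlapped that of the hypothalamic area. HF lay below MF for these 9 genes, as for 23.6% of the 13437 features with UMIs there in all sections. The cluster was too small in MF for a test, and the number of spots in the cluster also differed between the diets, so a change of level and a change of make-up cannot be told apart. The area with choroid plexus markers, with 9 to 13 spots, had the highest Cdkn1c, at 143 and 94.7 CPM in MF and at 199 and 184 CPM in HF. No other area passed 49.9 CPM of Cdkn1c.

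Position on the section was also scored in a deposited table as Moran's I, which is near 0 for a gene spread at random over the spots and rises as neighbouring spots grow alike. Nnat was at 0.694 and 0.635 in MF and 0.652 and 0.590 in HF, between the 13th and the 25th highest of all features. Dlk1 was at 0.617, 0.620, 0.657 and 0.461. For Plagl1 the score was 0.295, 0.278 and 0.235 in the first 3 sections and 0.0499 in HF replicate 2, the section where its hypothalamic level was low. Cdkn1c did not pass 0.0564 in any section. Depth differed between the sections, and no test was made on these scores.

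The hypothalamic spots fell into 5 sub-areas when they were clustered again without the members, each with at least 60 spots in every section. Sub-area h4, led by Ppp1r17, Hdc and Cited1, had the highest mean of 9 genes. In h5, with Pvalb and Syt2 among its leading genes, the means of 8 of these were lowest, while Dlk1 was lowest in h1, led by Ccdc42, Icam5 and Ddn. Magel2 varied most, with 117 ± 25.8 CPM (SD, n = 4 sections) in h4 and 22.3 ± 9.98 CPM in h5, 5.23-fold apart. Dlk1 followed with 309 ± 68.2 CPM in h4 and 66.9 ± 8.51 CPM in h1. Of the 9 genes, 7 were highest in h4 in each section. Mest and Plagl1 were highest in h4 in 3 of 4 sections, with h1 above it in HF replicate 1. The lowest sub-area did not hold in each section. Peg3 was lower in h1 than in h5 in both MF sections and in HF replicate 1, and Dlk1 was lowest in h5 in HF replicate 2. Cdkn1c had its lowest mean in h4, with sub-area means from 10.6 to 14.4 CPM.

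**Figure D3:**
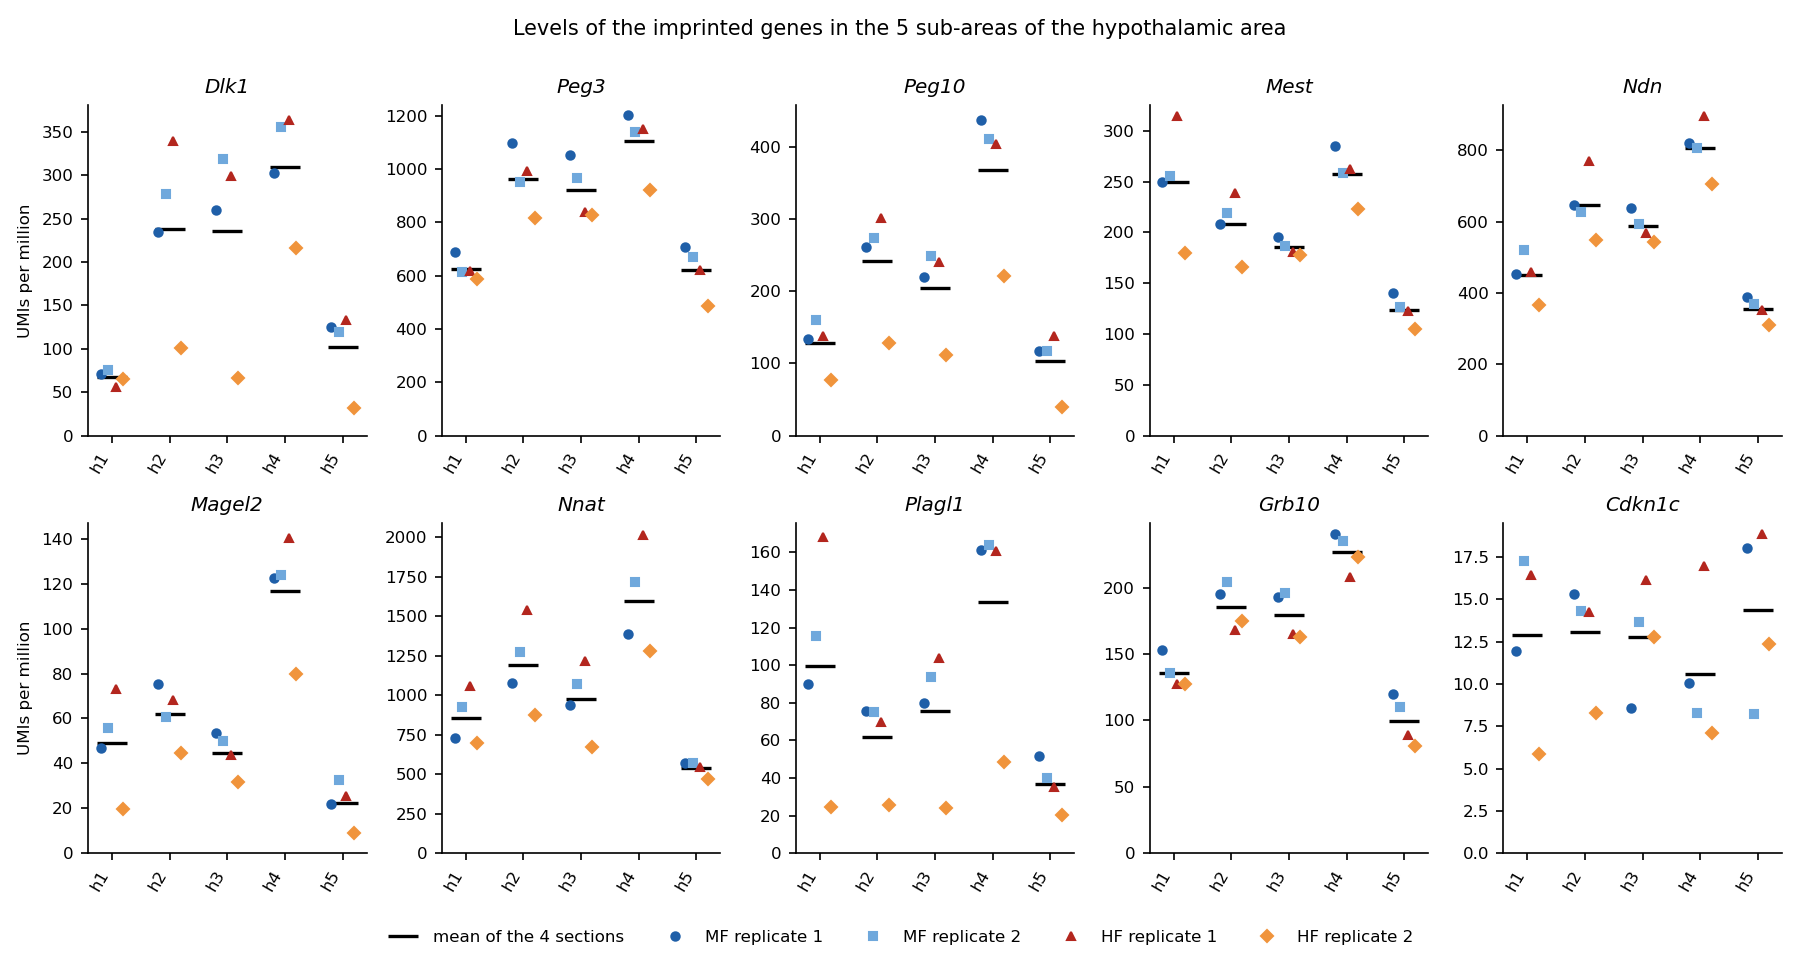
Levels of the imprinted genes in the 5 sub-areas h1 to h5 of the hypothalamic area, in CPM, with a point per section and a bar for the mean of 4 sections. The mean of 9 genes is highest in h4, and HF replicate 2 is the lowest point of Peg10 and Plagl1 in all 5 sub-areas.

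Across 17 clusters with at least 10 spots in each section, Dlk1, Magel2 and Peg10 had nearly the same profile, with Pearson r from 0.965 to 0.974 on mean log2(CPM + 1). Peg3 and Ndn came next with 0.936. Cdkn1c was unlike the rest, from 0.162 with Mest to 0.558 with Nnat. Among 10200 features, the profile most like that of Magel2 was Arhgap36 (r = 0.981), followed by AW551984 and Gabrq. For Dlk1 it was AW551984 (0.974), then Magel2 and Dgkk, and for Peg10 it was Magel2, then Calcr and Dlk1. Peg3 was closest to Nap1l5 (0.965), itself imprinted, and to Scg2 and Ubfd1. Ndn was closest to Tmem130, Impact and Gprasp2. Plagl1 lay nearest Esr1, Ngb and Cartpt, Grb10 nearest Tmie, Zcchc12 and Cul7, and Nnat nearest Dlg5, Nedd4 and Tsen34. Mest was most like Inha, Brinp3 and Prkacb, and Cdkn1c most like Rasl12, Mmp2 and Adamts9. All clusters share the same libraries, so these values describe likeness of pattern only. At the level of single hypothalamic spots the members were only weakly correlated, which in sparse counts is no finding.

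Other imprinted genes of a list went the same way in part. Of 63 listed genes 52 were probed, and of the 44 tested 20 were called higher in the hypothalamic area and 4 lower, against 17.5% and 20.9% of all features, with a median log2 difference of 0.21 against -0.04. The largest differences were 4.01 ± 0.12 (SE) for Calcr, the calcitonin receptor gene near Peg10, and 3.71 ± 0.13 for Asb4 in the same cluster. Rtl1, near Dlk1, was at 3.62 ± 0.22 and Zim1, near Peg3, at 2.77 ± 0.13. The other 16 genes called higher ran from 0.31 for Begain to 1.88 for Nap1l5. Between them lay Zdbf2, Usp29, Impact, Klf14, Dio3, Ddc, Sfmbt2, Blcap, Gnas, H13, Kcnk9, Rasgrf1, Inpp5f and Zrsr1. On the lower side were Mkrn3 (-0.62), Herc3 (-0.39), Ppp1r9a (-0.33) and Osbpl5 (-0.27). Mkrn3 belongs to the cluster of Ndn and Magel2, and Ppp1r9a to that of Peg10, Calcr and Asb4.

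The HF and MF groups were then compared to ask whether levels of the imprinted genes differed with the maternal diet. None of the 10 was called in the whole section, where 0% of 14971 features were called. There 6.81% of features had an unadjusted p under 0.05, a level that none of the 10 reached. DESeq2 called none of them either. Of the 10 log2 differences 2 were above 0, against 50.6% of all features, with a median of -0.11 against 0.00. Peg10 had the largest, at 63.6 and 77.3 CPM in MF and 67.7 and 40.1 CPM in HF, for a log2 difference of -0.40 ± 0.23 (SE) and an adjusted p of 0.749. The diets overlapped for 9 genes. Peg3 alone, 1 of 10, lay lower in both HF sections, at 441 and 449 CPM in MF and 427 and 396 CPM in HF, and 17.9% of all features with UMIs in every section did so. Without HF replicate 1 the fit called Dlk1 (-0.47), Peg10 (-0.80) and Plagl1 (-0.79), along with 7.68% of all features. Without HF replicate 2 it called none of the 10 and 5.55% of features, with Dlk1 at 0.17 and Plagl1 at 0.10. Fits with 1 HF section assume that it varies like the MF sections. In sections of tissue, fewer cells of a type and less RNA per cell cannot be told apart.

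In the hypothalamic area none of the 10 differences was above 0, against 49.8% of 13145 features, with a median of -0.22 against -0.00. No feature was called there (0%). edgeR and DESeq2 called none of the 10 genes, and none of the 10 had an unadjusted p under 0.05, as 6.11% of features did. The largest were -0.57 ± 0.45 (SE) for Plagl1, -0.45 ± 0.27 for Peg10, -0.38 ± 0.34 for Dlk1 and -0.37 ± 0.22 for Magel2. For each of these the low value came from HF replicate 2, and HF replicate 1 lay above both MF sections for Plagl1, Dlk1 and Magel2. Peg3, Peg10 and Grb10 were lower in both HF sections than in both MF sections, and 16.9% of features did so. For Peg10 the nearest sections of the diets were at 237.4 and 236.9 CPM. Grb10 had the smallest unadjusted p, 0.0577, with 182 and 174 CPM in MF against 151 and 156 CPM in HF, and a log2 difference of -0.23 ± 0.10 (SE) with an adjusted p of 0.804. The Tmem212/Ccdc153 cluster, also led by Irs4 and Otp, lies outside this area. It held 25 and 55 spots in MF and 146 and 105 in HF. With this cluster joined to the area, the differences of Nnat and Cdkn1c lay slightly above 0. The part of this split in the diet differences was not tested.

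**Figure D4:**
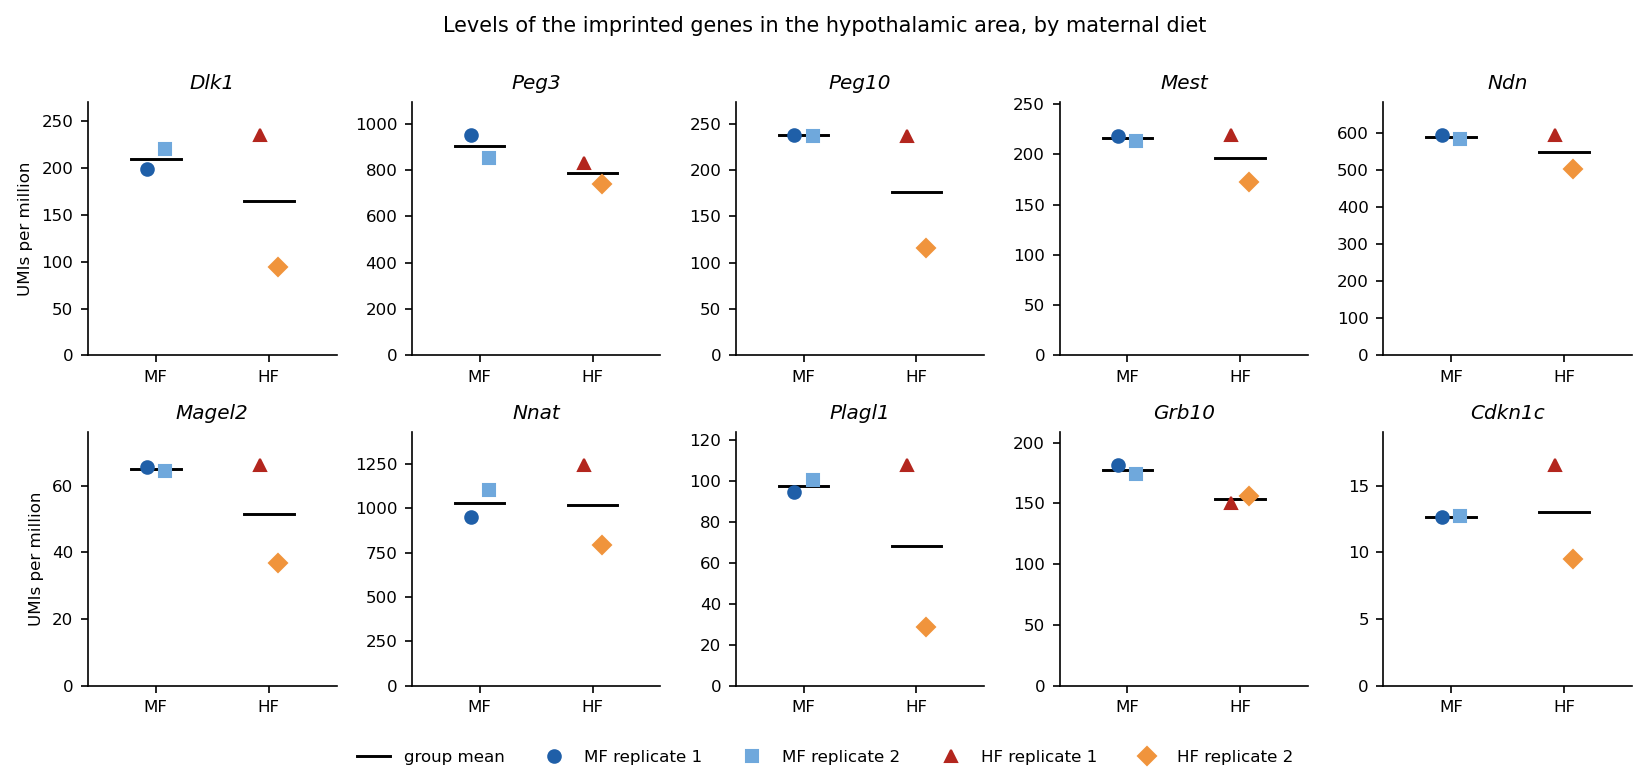
Levels of the imprinted genes in the hypothalamic area by maternal diet, in CPM from 0, with a point for each section and a bar for the mean of 2 sections. HF replicate 2 is the lowest of the 4 sections for 9 genes, as for Plagl1 with 28.4 against 94.2 to 108, and Grb10 is lowest in HF replicate 1.

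The hypothalamic result differed with the HF section that entered the fit. With HF replicate 2 alone against MF, 6 of the 10 genes were called, each lower, and 5.8% of all features were called in either direction. They were Plagl1 (-1.77), Dlk1 (-1.15), Peg10 (-1.04), Magel2 (-0.82), Nnat (-0.37) and Peg3 (-0.29). With HF replicate 1 alone none of the 10 and 2.46% of features were called, and Cdkn1c, Nnat, Dlk1, Plagl1, Magel2 and Mest were at 0.37, 0.26, 0.15, 0.13, 0.01 and 0.00. Without a filter on low counts Peg10 (-0.47, adjusted p 0.0395) and Plagl1 (-0.58, adjusted p 0.00223) were called with all 4 sections, as were 0.725% of features. HF replicate 2 also held low values within sub-areas, but its sub-areas were not alike in peptides to those of the other sections. In its h4, Oxt was at 8139 CPM against 11.3 CPM or less, and Avp at 3338 CPM against 2.87 CPM or less. In its h3, Pmch was at 2.68 CPM against 1836 to 6804 CPM. In h4, Plagl1 was at 161, 164 and 160.4 CPM in the first 3 sections and at 48.6 CPM in HF replicate 2. Dlk1 in h3 was at 259.6, 319 and 299 CPM and then at 65.8 CPM. In h1 Dlk1 was at 65.5 CPM in HF replicate 2, between the other sections at 55.6 to 75.2 CPM.

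Summed levels of cell markers in the hypothalamic area are given beside these results, and their part in them was not tested. No test was made on the sums, and no marker of these lists was called between the diets. The summed level of 20 hypothalamic neuron markers was 5318 and 5003 CPM in MF and 4621 and 3659 CPM in HF, with 2 markers at 0 in a section and 19 tested. Of these 19, 15 had a log2 difference below 0, as did 6600 of all 13145 features tested. Of 17 probed hypothalamic peptides the sum was 5107 and 3864 CPM in MF and 3240 and 3639 CPM in HF. These sums rest on different genes and are not alike in kind. Pmch gave 3142 and 1897 CPM in MF and 1395 CPM in HF replicate 1, but 1.87 CPM in HF replicate 2. In HF replicate 2 Oxt gave 1786 CPM and Avp 873 CPM. Vessel markers (363 and 399.7 against 461 and 413 CPM), ependymal and tanycyte markers (138 and 139 against 179 and 140.5 CPM) and microglial markers (518 and 533 against 561 and 554 CPM) lay higher in both HF sections. Of single features with UMIs there in every section, 19.7% lay higher in both HF sections and 16.9% lower in both. Oligodendrocyte, astrocyte, meningeal, choroid plexus and pituitary markers overlapped between the diets. Pituitary hormones were at 0.747 to 12.9 CPM in sum, with 5 of 6 at 0 in a section.

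Outside the hypothalamus the diet fits called no imprinted gene in the cortical, hippocampal, thalamic, striatal and white matter areas. The shares of all features called there were 0.153%, 0.103%, 0%, 0.0724% and 0.0324%. Of the 10 genes 4, 4, 3, 4 and 2 were higher in HF in these areas whatever the test, against 49.8%, 49.9%, 50.6%, 50.3% and 50.3% of features. In the same order of areas 5, 3, 5, 1 and 1 of the 10 genes were lower in both HF sections than in both MF sections, as were 20.8%, 20.8%, 17.6%, 17.3% and 15.3% of features. In the hippocampal, thalamic and striatal areas 2, 1 and 1 were higher in both, as were 17.7%, 20.2% and 17.8% of features. Peg10 was lower in both HF sections in the cortical, hippocampal and thalamic areas. In the thalamic area it was at 34.2 and 36.3 CPM in MF and 22.7 and 19.4 CPM in HF, without overlap. Its log2 difference there was -0.74 ± 0.13 (SE), with an unadjusted p of 0.000377 and an adjusted p of 0.459. In the cortical area Peg10 was at 18.1 and 21.0 CPM in MF and 13.8 and 12.6 CPM in HF (-0.54 ± 0.15), and in the hippocampal area at 17.0 and 16.3 against 12.7 and 10.1 CPM (-0.56 ± 0.19). The unadjusted p of Peg10 was under 0.05 in these areas, as it was for 7.15%, 7.92% and 9.29% of features.

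Dlk1 did not overlap between the diets in the thalamic area either, at 28.9 and 24.5 CPM in MF and 15.8 and 19.9 CPM in HF, for a log2 difference of -0.61 ± 0.16 (SE) and an adjusted p of 0.582. The thalamic area joins a cluster led by Prkcd and Tnnt1 with another led by Gbx2 and Calb2. In the Prkcd cluster Dlk1 was at 24.7 and 20.1 CPM in MF and 10.7 and 8.36 CPM in HF. In the Gbx2 cluster it was at 35.2 and 32.0 CPM in MF and 41.7 and 29.6 CPM in HF, so the diets overlapped there. The Gbx2 cluster held 303 and 258 spots in MF and 111 and 306 in HF. The part of this mix in the thalamic difference was not tested. In white matter Dlk1 was at 22.8 and 19.9 CPM in MF and 8.14 and 12.6 CPM in HF (-0.96 ± 0.25, adjusted p 0.790). These levels rest on 141 and 58 UMIs in MF and 10 and 41 UMIs in HF. Nnat lay higher in both HF sections in the striatal area, at 258 and 316 CPM in MF and 438.5 and 326 CPM in HF (0.40 ± 0.13, adjusted p 0.474). It was also higher in both in the hippocampal area, at 410 and 404 CPM in MF and 432 and 499 CPM in HF, and in the thalamic area, at 269.5 and 268.6 CPM in MF and 278 and 317 CPM in HF. In the cortex Nnat was lower in both HF sections (-0.20 ± 0.09). Peg3 had an unadjusted p under 0.05 in the hippocampal (-0.22 ± 0.09) and white matter (-0.38 ± 0.16) areas. The other members had no unadjusted p under 0.05 in these 5 areas. In the striatal area 6.6% of features passed that level and in white matter 5.19%.

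The calls of the other areas moved with some settings. In the thalamic area, where 0% of features were called with all sections, Peg10 was called with the replicate number as a block, with 0.224% of features. Dlk1 and Peg10 were called there without a filter on low counts, with 0.49% of features, and Dlk1, Peg10 and Magel2 without HF replicate 2, with 7.79%. Without HF replicate 1, Peg10 was called in the cortical, hippocampal and thalamic areas, Nnat in the hippocampal area and Mest in the striatal area. That fit called 5.36% of features in the cortical area, 6.18% in the hippocampal, 5.85% in the thalamic and 1.05% in the striatal area. Without HF replicate 2, Nnat was called in the striatal area, with 0.23% of features, and Peg3 in white matter, with 0.512%. Leaving out either MF section called none of the 10 genes in any area.

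**Figure D5:**
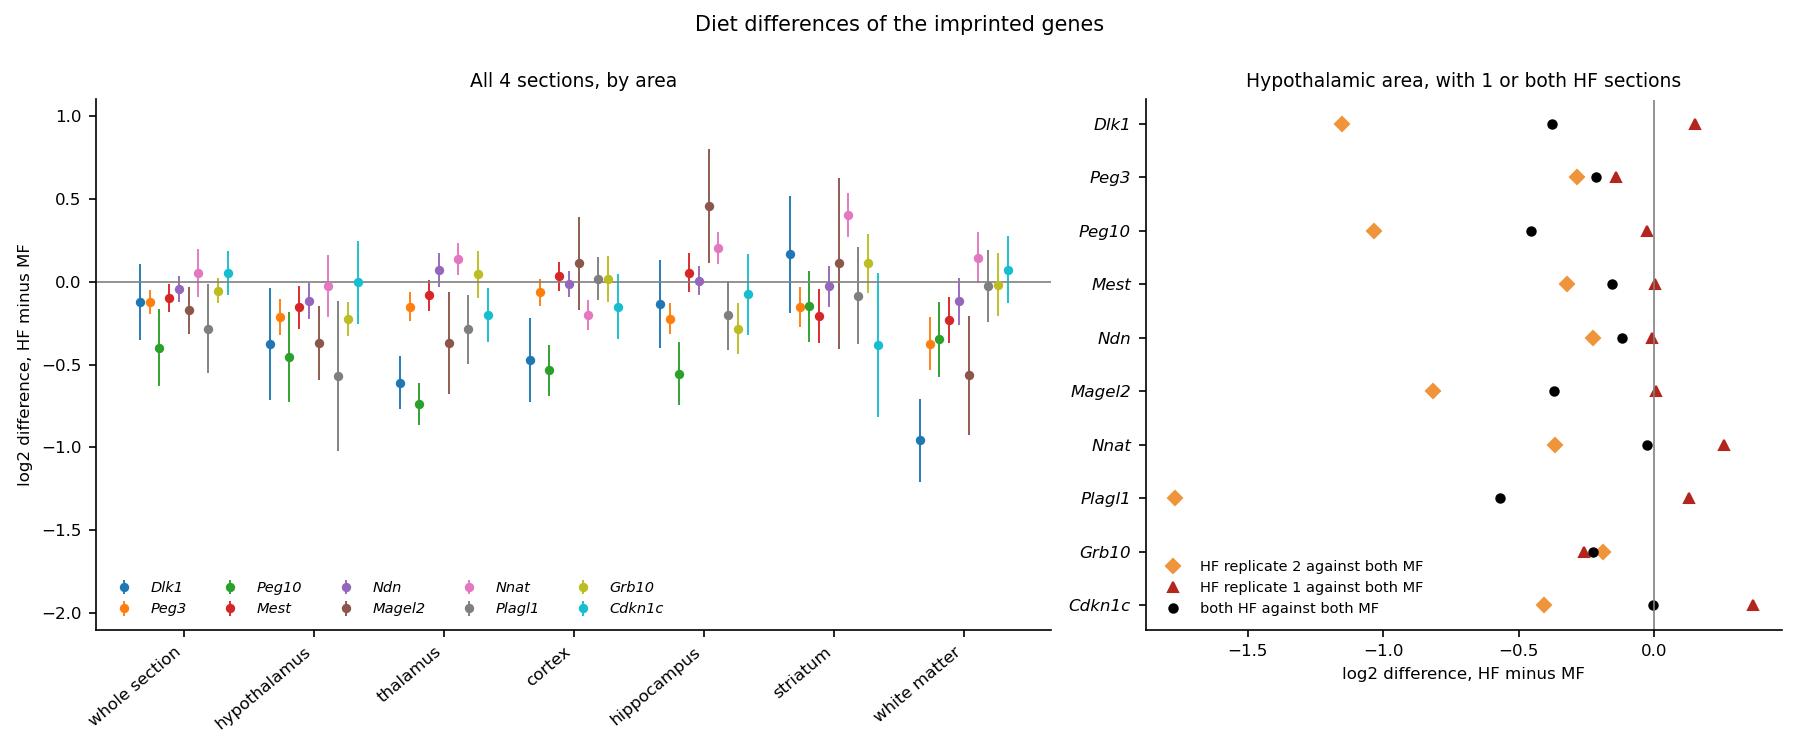
Left, log2 difference of HF minus MF for each imprinted gene in the whole section and 6 areas, with points for the edgeR estimate and bars of 1 SE. Right, the same difference in the hypothalamic area with both HF sections or with 1 of them: with HF replicate 2 alone Plagl1 is at -1.77 and Dlk1 at -1.15, and with HF replicate 1 alone they are at 0.13 and 0.15.

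The difference between areas was tested as the diet effect in the hypothalamic area minus its mean over the other 5 areas. No imprinted gene was called, and 0.00724% of 13817 features were, with 9.08% at an unadjusted p under 0.05. DESeq2 called none of the 10. Plagl1 was the only member under that level, at -0.60 ± 0.23 (SE), with an unadjusted p of 0.0125 and an adjusted p of 0.350. Dlk1 was at -0.08 ± 0.25 and Peg10 at -0.07 ± 0.14. Without HF replicate 1, Dlk1, Peg10, Magel2, Nnat and Plagl1 were called, with Plagl1 at -1.48, and 2.72% of features were. Without HF replicate 2 Plagl1 was at 0.07, and none of the 10 and 0.0844% of features were called. Without a filter on low counts Plagl1 was called, with 0.852% of features.

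The other imprinted genes gave no call between the diets in the whole section or any area. In the hypothalamic area 25 of the 44 tested lay below 0 and 19 above, with a median of -0.01, and Zim1 and Blcap had an unadjusted p under 0.05. The lowest were Asb4 (-1.03 ± 0.68, SE) and Snrpn (-0.75 ± 0.34), and the highest were Ano1 (0.89 ± 0.43) and Slc22a3 (0.56 ± 0.30). Asb4 was at 79.7 and 95.4 CPM in MF and at 82.7 and 8.21 CPM in HF, so HF replicate 2 alone was low. Calcr, the gene with the highest hypothalamic difference of the list, was at 48.0 and 58.2 CPM in MF and at 61.8 and 32.1 CPM in HF.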

How the data were processed

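Visium-FFPE sections of 2 MF and 2 HF brains were used. Probe reads had been aligned by the authors with Space Ranger (2.0.0 per the file headers, build mm10). The deposited values are raw UMI counts of each feature in each spot, together with Moran's I, a deposited score of how alike neighbouring spots are. The labels do not name the animals, so p-values measure only the spread between these sections. In fits over several areas that spread is pooled over the areas.

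Spots needed at least 500 UMIs and 250 genes. Those kept were clustered with leidenalg 0.10.2 at resolution 1 (2000 variable genes, 30 components, 20 neighbours). The members, other imprinted genes, peptide and pituitary hormones, mitochondrial features, Xist and Tsix, 85 features in all, were held out. Areas were named from fixed markers among 50 leading genes, and 3 clusters stayed unnamed. The sections share 2472 array barcodes, which mark positions. Doublets do not apply to spots.

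UMIs were summed per section and area and tested with edgeR 4.0.16 in R 4.3.3 (TMM, filterByExpr, quasi-likelihood), with Benjamini-Hochberg adjustment over all features. The script was tested on simulated data. Areas under 100 spots in a section were not tested. An exact permutation test of 2 sections against 2 reaches at least p = 0.333. Alternatives were DESeq2 1.42.0, a replicate block, no filter, library size alone, spots thinned to 5000 UMIs, resolution 0.5, joined areas and fits that leave out 1 section. The text names the members, the 3 features most like each, other imprinted genes that were called or had the 2 largest changes each way, and marker lists that did not overlap, with Zim1, Blcap and Calcr added after their diet values were seen. The members and lists were chosen with earlier results of these data known.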

Additional observations from a re-analysis of the deposited data

How the results depend on the processing

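The calls of 9 genes in the hypothalamic area against the other areas were made under all 10 alternatives, and Leiden resolution 0.5 added Cdkn1c. Their log2 differences ranged from 3.73 to 4.16 for Dlk1 and from 0.85 to 0.99 for Mest. Between the diets none of the 10 genes was called under DESeq2, library size alone, thinned spots or resolution 0.5. Without a filter on low counts 2 were called in the hypothalamic area, 2 in the thalamic area and 1 (Plagl1) for area by diet. With the replicate block 1 was called in the thalamic area and 0 in the others. The numbers did not pair the sections, with a correlation of -0.165 over the whole section. A crossed block, chosen after seeing the data, called 2 in the thalamic area, along with 1.48% of all features there.

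Leaving out 1 section gave 0 to 3 called genes in the whole section, 0 to 6 in the hypothalamic area, 0 to 1 in the cortical, striatal and white matter areas, 0 to 2 in the hippocampal area, 0 to 3 in the thalamic area and 0 to 5 for area by diet. The log2 values that changed sign ranged as follows. In the whole section Dlk1 ran from -0.47 to 0.17, Ndn from -0.10 to 0.020, Nnat from -0.13 to 0.22, Plagl1 from -0.79 to 0.10 and Cdkn1c from -0.11 to 0.19. In the hypothalamic area Dlk1 ran from -1.15 to 0.15, Mest from -0.32 to 0.0045, Magel2 from -0.82 to 0.0072, Nnat from -0.37 to 0.26, Plagl1 from -1.77 to 0.13 and Cdkn1c from -0.41 to 0.37. Against the other areas Cdkn1c ran from -0.063 to 0.11. For area by diet Dlk1 ran from -0.71 to 0.56, Peg3 from -0.12 to 0.10, Peg10 from -0.45 to 0.30, Ndn from -0.26 to 0.077, Magel2 from -0.85 to 0.15, Nnat from -0.45 to 0.080, Plagl1 from -1.48 to 0.072 and Cdkn1c from -0.23 to 0.71.

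With all sections, signs changed for values near 0. Thinned spots gave -0.061 for Cdkn1c in the whole section, 0.014 for Nnat in the hypothalamic area and -0.20 for Cdkn1c by area and diet. In the hypothalamic area Cdkn1c was at 0.012 with DESeq2 and 0.0086 with library size alone. With the hypothalamic and Tmem212/Ccdc153 areas joined, chosen after seeing the data, Nnat was at 0.026 and Cdkn1c at 0.016 there. For area by diet, joining gave 0.25 for Dlk1 and 0.0040 for Peg3, and resolution 0.5 gave 0.18 and 0.0061. The cause was not tested. All 5 sub-areas were present in each section, so sums over shared sub-areas gave the same values.

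Counts over all features moved too. In the whole section 0 were called, against 23 by DESeq2, 5 without a filter, 1 after thinning, 11 with the crossed block, 1166 without HF replicate 1 and 840 without HF replicate 2. In the hypothalamic area 0 were called, against 6, 125 without a filter, 3 with the replicate block, 784 and 332. Without HF replicate 1, 720 were called in the cortical area (20 with all sections), 800 in the hippocampal (13), 795 in the thalamic (0) and 124 in the striatal area (8), and without HF replicate 2, 1059 in the thalamic area. For area by diet 1 was called, against 160 without a filter, 2 with library size alone, 16 at resolution 0.5, 14 with joined areas, 385 and 12. Low counts limit Cdkn1c in the hypothalamic area and outside it, and Magel2 outside it. They also limit Dlk1 in the striatal and white matter areas.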
